A study of Homo sapiens with 6 samples.

Results

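Translation of most messages begins when initiation factors bring the initiator tRNA and the small ribosomal subunit to the capped 5′ end. eIF2 carries that tRNA, eIF2B reloads eIF2 with GTP, and the eIF2 kinases slow the cycle by phosphorylating eIF2's alpha subunit under stress. eIF4E binds the cap, eIF4G joins it to the helicase eIF4A, and the 4E-binding proteins, which mTORC1 controls, block the contact of eIF4E with eIF4G.

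The genes described here were all rows whose symbol starts with EIF and a digit, without rows described as pseudogenes. The rule found 60 of the 50868 genes in the count tables, of which 56 are protein-coding and 4 are noncoding genes named after an EIF neighbour. It left out 72 EIF pseudogenes. RNA sequencing was done in DU145, an established human prostate cancer line, in 3 siRCC2 libraries and 3 siCtrl libraries. The titles name an siRNA against RCC2 (siRCC2) or a control (siCtrl), and the genotype labels read RCC2 knockdown for siRCC2 and RCC2 wild type for siCtrl. The sources used here state neither the siRNA sequences nor the time after transfection. No label tells whether replicates were separate cultures. A p-value here therefore sets the group difference only against the variation among these libraries, and that variation may be technical.

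RCC2, the targeted gene, had 59.3, 57.6 and 54.8 CPM (counts scaled by TMM to a common library size) in siRCC2 replicates 1 to 3, against 198, 194 and 191 CPM in siCtrl replicates 1 to 3. All siRCC2 libraries lay below all siCtrl libraries (log2 fold change -1.76, SE 0.07, edgeR adjusted p = 2.00e-05). The epithelial markers KRT8, KRT18, CDH1, EPCAM, KRT7 and KRT19 were present in all libraries. KRT8, KRT18 and CDH1 were higher in siRCC2 cells, EPCAM and KRT7 were lower, and KRT19 did not pass the test. The fibroblast marker COL1A1 averaged 9.22 CPM in siRCC2 cells and 12.5 CPM in siCtrl cells. Total counts ranged from 17377191 to 19895431. In the principal components of all tested genes, siRCC2 replicate 1 stood apart from the other siRCC2 libraries on the component that held 16.4% of the variance, and its values are named below where they decide a result. In bulk RNA, fewer cells of a type and less RNA per cell cannot be told apart.

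Of the 60 members, 57 passed the filter on low counts. Of these, 17 were higher and 15 lower in siRCC2 cells at an adjusted p under 0.05, so 32 were called (56.1%), against 41.8% of the 16536 genes tested. Some called rows share sequence, such as EIF3C with EIF3CL and EIF5A with EIF5AL1. With such rows summed, 15 were higher and 13 lower, with 3419 and 3486 of all genes. The members were also more abundant than most genes, with a median of 141 CPM against 18.6 CPM over all tested genes. In each direction the background was 20.7% higher and 21.1% lower. Among genes of at least 10 CPM, 29 of 52 members were called (55.8%), against 47.9% of 10204 genes; 14 were higher, against 25.3% of genes, and 15 lower, against 22.6%. The groups did not overlap for 38 members (66.7%), against 55.4% of all tested genes, and for 36 of the 52 more abundant members, against 61.1%. The median log2 fold change was 0.08 over the members and -0.02 over all genes, and the median size of the change was 0.33 and 0.40. The group thus held rises and falls in nearly equal number. At least 2-fold changes past the threshold were seen in 7 members: EIF2AK1, EIF4G3, EIF2B5 and EIF4E3 were lower, and EIF2S3B and the noncoding EIF3J-DT and EIF2AK3-DT were higher. These 7 of 57 members stand beside 12.1% of all tested genes. Only the 4 that were lower average at least 10 CPM. Those 4 of 52 members stand beside 8.19% of genes of at least 10 CPM. Together the members took 0.885%, 0.914% and 0.877% of all counts in siRCC2 cells, against 0.951%, 0.942% and 0.973% in siCtrl cells. The groups did not overlap in that share (exact permutation test, two-sided p = 0.1, the smallest that 3 against 3 libraries allow).

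**Figure D1:**
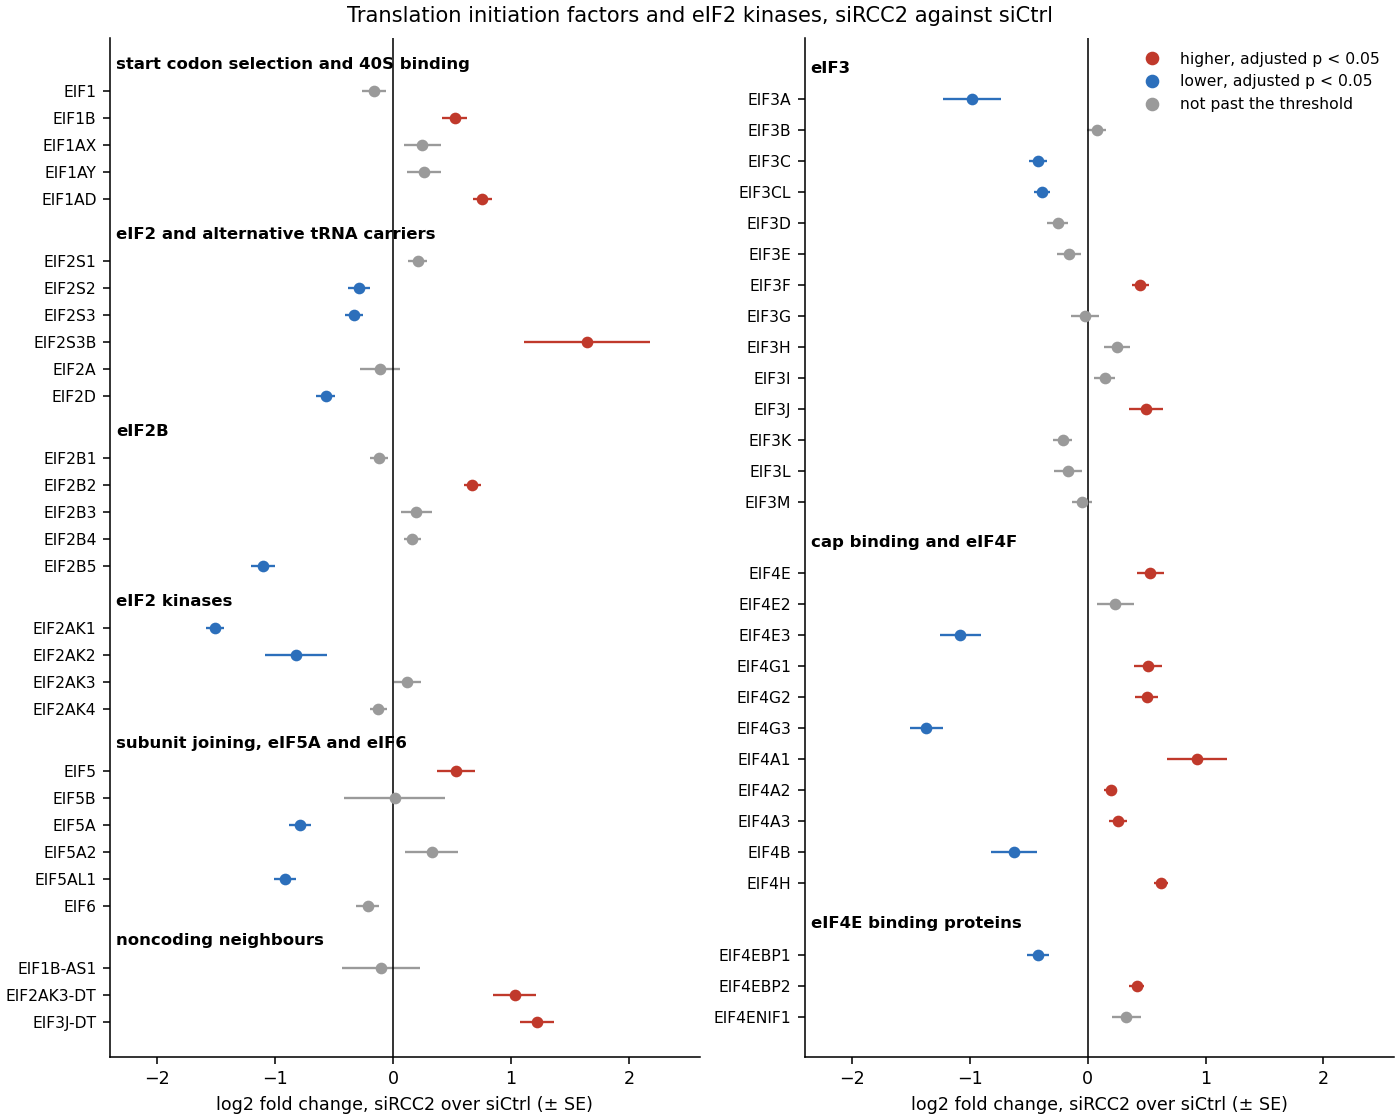
Log2 fold change of siRCC2 over siCtrl for the 57 tested members (points, with SE as bars), grouped by role; red and blue mark members higher and lower at an adjusted p under 0.05, grey the rest. The lowest is EIF2AK1 at -1.51, and the cap-binding group holds both the rise of EIF4H (0.62) and the fall of EIF4G3 (-1.37).

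The eIF2 kinases are EIF2AK1 (HRI, sensitive to haem and mitochondrial stress), EIF2AK2 (PKR, activated by double-stranded RNA), EIF2AK3 (PERK, in the endoplasmic reticulum) and EIF2AK4 (GCN2, activated by uncharged tRNA). EIF2AK1 and EIF2AK2 fell and no kinase rose. Thus 2 of 4 kinases were called, against 41.8% of all tested genes and 47.9% of those of at least 10 CPM in either direction. EIF2AK1 (GRCh38 chromosome 7, 6022244 to 6059230, minus strand) had 85.3, 79.8 and 74.2 CPM in siRCC2 cells, against 230.4, 234 and 217 CPM in siCtrl cells. It was 2.85-fold lower, far outside the spread of either group, with a log2 fold change of -1.51 ± 0.08 (SE, as in all fold changes below; edgeR adjusted p = 4.27e-05). Its exons overlap those of AIMP2 on the opposite strand over 532 bases, 9.59% of its exon length. AIMP2 had 92.3 ± 13.7 CPM in siRCC2 cells and 98.7 ± 1.66 CPM in siCtrl cells (SD, n = 3 each) and did not pass the test.

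EIF2AK2 had 25.3, 47.9 and 56.9 CPM in siRCC2 cells, against 76.2, 76.1 and 78.1 CPM in siCtrl cells. All 3 siRCC2 libraries were lower, but they differed 2.25-fold among themselves, with replicate 1 lowest. Its log2 fold change was -0.82 ± 0.26 (edgeR adjusted p = 0.0411). The call was lost without siRCC2 replicate 2 (adjusted p = 0.0617) and without siCtrl replicate 1, 2 or 3 (adjusted p = 0.0936, 0.0929 and 0.0986). EIF2AK3 had 10.9, 13.0 and 11.8 CPM in siRCC2 cells and 11.2, 10.6 and 11.1 CPM in siCtrl cells, overlapping groups with a log2 fold change of 0.12 ± 0.11 (edgeR adjusted p = 0.44). EIF2AK4 had 131, 146 and 149 CPM in siRCC2 cells and 155, 154 and 156 CPM in siCtrl cells. Its groups did not overlap, but the difference of -0.13 ± 0.07 did not pass the test (edgeR adjusted p = 0.197).

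Per kilobase of transcript, EIF2AK1 made up 29.7%, 24.5% and 22.3% of the summed level of the 4 kinases in siRCC2 cells, against 44.7%, 45.2% and 43.0% in siCtrl cells. EIF2AK4 made up 57.4%, 56.4% and 56.5% in siRCC2 cells, against 37.8%, 37.5% and 38.9% in siCtrl cells. The order of these 2 kinases was thus the opposite in the groups. These shares, and the other ratios between members below, were chosen after the values were seen. None of them overlapped between groups, and each had the smallest exact p of 0.1.

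eIF2 itself has 3 subunits. EIF2S1, the alpha subunit that the kinases phosphorylate, had 185, 209 and 217 CPM in siRCC2 cells and 182, 169 and 178 CPM in siCtrl cells. Every siRCC2 library was higher, but the log2 fold change of 0.21 ± 0.08 did not pass (edgeR adjusted p = 0.0735). Without siRCC2 replicate 1 it was 0.26 and passed (adjusted p = 0.0132). EIF2S2, the beta subunit, had 122, 150.2 and 149 CPM in siRCC2 cells, against 172, 170.1 and 173 CPM in siCtrl cells. It fell, with a log2 fold change of -0.29 ± 0.09 (edgeR adjusted p = 0.0402). That call was lost without siRCC2 replicate 2 (adjusted p = 0.0552) and without siCtrl replicate 1, 2 or 3 (adjusted p = 0.103, 0.0956 and 0.107). EIF2S3, the gamma subunit that binds GTP and tRNA, had 143, 159 and 168 CPM in siRCC2 cells, against 195, 199 and 199 CPM in siCtrl cells. Its fall of -0.33 ± 0.08 on the log2 scale (edgeR adjusted p = 0.0118) held without each library in turn.

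EIF2S3B, an autosomal copy of EIF2S3, had 9.07, 7.73 and 2.10 CPM in siRCC2 cells, against 1.74, 2.80 and 1.49 CPM in siCtrl cells. It was called higher (1.64 ± 0.53, edgeR adjusted p = 0.0432), but siRCC2 replicate 3 lay inside the siCtrl range. The call was lost without any library except siRCC2 replicate 3, with adjusted p-values of 0.102 without siRCC2 replicate 1 and 0.11 without siRCC2 replicate 2, and of 0.122, 0.0621 and 0.128 without siCtrl replicates 1, 2 and 3. It was also lost with library totals alone (adjusted p = 0.0515) and with limma-voom (adjusted p = 0.12). Because 25.5% of its 50-base stretches also occur in EIF2S3, its reads are uncertain; both rows summed gave -0.29 ± 0.07 (edgeR adjusted p = 0.0125). EIF2D, which can deliver tRNA without eIF2 and also recycles ribosomes, had 71.3, 69.9 and 62.9 CPM in siRCC2 cells, against 97.7, 107 and 98.8 CPM in siCtrl cells. It fell in all libraries (-0.57 ± 0.08, edgeR adjusted p = 0.00162). EIF2A, another alternative carrier, averaged 49.7 ± 0.881 CPM in siRCC2 cells and 53.7 ± 13.6 CPM in siCtrl cells and did not pass.

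eIF2B is the exchange factor that returns eIF2 to its GTP-bound form, with a catalytic epsilon subunit and regulatory subunits that sense phosphorylated eIF2. EIF2B5, the epsilon subunit, fell, EIF2B2, the beta subunit, rose, and the other 3 subunits did not pass. The called share, 2 of 5, lay below the 41.8% of all tested genes and the 47.9% of those of at least 10 CPM. EIF2B5 had 29.3, 24.3 and 29.6 CPM in siRCC2 cells, against 59.2, 60.8 and 58.8 CPM in siCtrl cells. The groups were far apart and each was tight, with a log2 fold change of -1.11 ± 0.10 (edgeR adjusted p = 0.000275). EIF2B2 had 113, 106 and 115 CPM in siRCC2 cells, against 69.9, 73.0 and 67.1 CPM in siCtrl cells. All siRCC2 libraries were higher (0.67 ± 0.07, edgeR adjusted p = 0.000509).

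EIF2B1, the alpha subunit, had 47.3, 48.4 and 44.4 CPM in siRCC2 cells and 50.9, 49.6 and 51.9 CPM in siCtrl cells (-0.12 ± 0.08, edgeR adjusted p = 0.238). EIF2B3, the gamma subunit, had 20.8, 18.1 and 16.3 CPM in siRCC2 cells and 14.4, 17.4 and 16.4 CPM in siCtrl cells (0.20 ± 0.13, edgeR adjusted p = 0.271). EIF2B4, the delta subunit, had 62.8, 60.4 and 59.7 CPM in siRCC2 cells and 56.2, 53.6 and 53.4 CPM in siCtrl cells (0.16 ± 0.07, edgeR adjusted p = 0.105). Only EIF2B3 overlapped between the groups, although none of the 3 passed. Per kilobase of transcript, the ratio of EIF2B5 to EIF2B2 was 0.468, 0.414 and 0.466 in siRCC2 cells, against 1.54, 1.51 and 1.59 in siCtrl cells. The ratio was lower in every siRCC2 library, but its level rests on median transcript lengths of 2380 bases for EIF2B5 and 4314 bases for EIF2B2, and in CPM EIF2B5 lay below EIF2B2 in every library of both groups.

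The files place EIF2B5 on chromosome 3 from 184135038 to 184684758, a span of 549721 bases that holds 19 other genes of the files, EIF4G1 among them. GENCODE 29 gives EIF2B5 a locus of 11075 bases. VWA5B2, one of the genes within the longer span, had 0.605, 0.258 and 0.157 CPM in siRCC2 cells, against 2.63, 3.34 and 3.40 CPM in siCtrl cells. ALG3, also within the span, was higher in siRCC2 cells (0.35 ± 0.06, edgeR adjusted p = 0.00352), as was EIF4G1. The other genes within the span are not given here. Whether the longer gene model entered the counting was not tested.

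**Figure D2:**
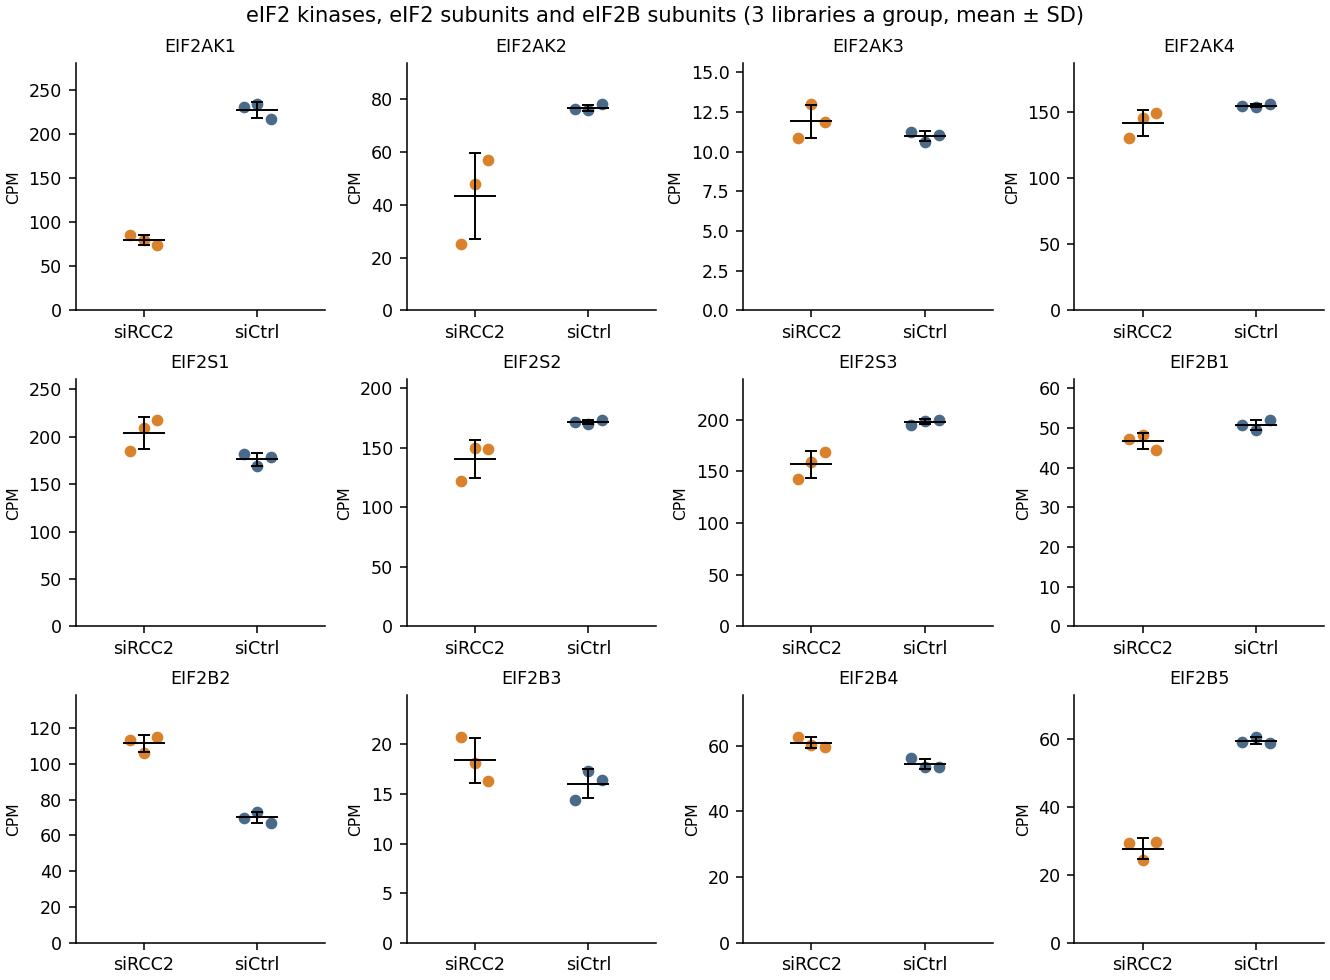
CPM of the eIF2 kinases, eIF2 subunits and eIF2B subunits in each siRCC2 library (orange, left) and siCtrl library (blue, right), with mean and SD (n = 3 each). EIF2AK1 and EIF2B5 lie well below their siCtrl levels in all siRCC2 libraries, EIF2B2 lies above, and the 3 siRCC2 values of EIF2AK2 are spread from 25.3 to 56.9 CPM.

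The list of eIF2 phosphatases, kinase regulators and stress factors controlled by upstream reading frames had 18 tested genes. Of these, 2 rose, 8 fell and 8 did not pass. The called share was 55.6%, against 41.8% of all genes and 47.9% of those of at least 10 CPM. The list's median log2 fold change was -0.39, against -0.02 over all genes. PPP1R15A (GADD34), the induced subunit that targets a phosphatase to eIF2 alpha, averaged 74.0 ± 3.55 CPM in siRCC2 cells and 153 ± 3.53 CPM in siCtrl cells (-1.04 ± 0.07, edgeR adjusted p = 8.85e-05). PPP1R15B (CReP), its constitutive counterpart, averaged 66.0 ± 10.2 CPM in siRCC2 cells and 153 ± 0.711 CPM in siCtrl cells (-1.21 ± 0.12, edgeR adjusted p = 0.000346). Messages of both phosphatase subunits and of 2 kinases were therefore lower. These are RNA levels, and eIF2 phosphorylation was not measured in these files.

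CEBPG, a partner of ATF4 in DNA binding, averaged 71.1 ± 6.20 CPM in siRCC2 cells and 167 ± 2.47 CPM in siCtrl cells (-1.23 ± 0.08, edgeR adjusted p = 9.00e-05). DDIT3 (CHOP), a stress-induced transcription factor, averaged 23.6 ± 3.04 CPM in siRCC2 cells and 56.9 ± 4.76 CPM in siCtrl cells (-1.27 ± 0.12, edgeR adjusted p = 0.000356). ATF4, the transcription factor whose translation rises when eIF2 is phosphorylated, was also lower at the RNA level (-0.34 ± 0.07, edgeR adjusted p = 0.00636). It was named after its value was seen.

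eIF3 is the large complex that holds the small subunit and recruits the messenger RNA. Of its 14 tested genes, 2 rose, 3 fell and 9 did not pass, a called share of 35.7% against 41.8% of all tested genes and 47.9% of those of at least 10 CPM. The largest change was in EIF3A, the scaffold subunit, with 102, 178 and 219 CPM in siRCC2 cells, against 313, 339 and 335 CPM in siCtrl cells. The siRCC2 values differed 2.14-fold among themselves, with replicate 1 lowest, yet all lay below the siCtrl values (-0.98 ± 0.25, edgeR adjusted p = 0.0169). The call was lost without siCtrl replicate 2 (adjusted p = 0.0511) or replicate 3 (adjusted p = 0.0503). Per kilobase, the ratio of EIF3A to EIF3B, the other core scaffold subunit, was 0.128, 0.252 and 0.329 in siRCC2 cells, against 0.465, 0.475 and 0.497 in siCtrl cells. EIF3B itself averaged 391 ± 36.3 CPM in siRCC2 cells and 371 ± 12.7 CPM in siCtrl cells and did not pass.

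EIF3C, a core subunit, had 426, 372 and 364 CPM in siRCC2 cells, against 515, 523 and 518 CPM in siCtrl cells (-0.42 ± 0.07, edgeR adjusted p = 0.0041). EIF3CL, its near-identical copy, had 266, 242 and 234 CPM in siRCC2 cells, against 327, 323 and 322 CPM in siCtrl cells (-0.39 ± 0.07, edgeR adjusted p = 0.0039). EIF3C shares 96.8% of its 50-base stretches with EIF3CL, so the split between them is uncertain. Their sum fell by the same measure (-0.41 ± 0.07, edgeR adjusted p = 0.00372). Without siRCC2 replicate 2, EIF3C had an adjusted p of 0.0509 and EIF3CL of 0.05, both just above the threshold, so both calls were lost. EIF3F, another eIF3 subunit, had 103, 96.5 and 93.8 CPM in siRCC2 cells, against 72.0, 72.3 and 71.1 CPM in siCtrl cells. It rose in all siRCC2 libraries (0.45 ± 0.07, edgeR adjusted p = 0.00239).

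EIF3J, a loosely bound subunit that also acts in ribosome recycling, had 69.3, 87.9 and 99.8 CPM in siRCC2 cells, against 67.0, 56.7 and 58.8 CPM in siCtrl cells. The groups came close at siRCC2 replicate 1 and siCtrl replicate 1 (0.49 ± 0.14, edgeR adjusted p = 0.0287). Its call was lost without siRCC2 replicate 2 or 3 (adjusted p = 0.0621 and 0.0645), without siCtrl replicate 2 or 3 (adjusted p = 0.0965 and 0.0899) and when counts were scaled by library totals alone (adjusted p = 0.0623). EIF3J-DT, a noncoding gene on the opposite strand, had 10.2, 11.7 and 9.59 CPM in siRCC2 cells, against 5.01, 4.20 and 4.28 CPM in siCtrl cells. It rose in all siRCC2 libraries, without any overlap (1.22 ± 0.14, edgeR adjusted p = 0.000734). Both genes start within one promoter window, which is shown because they rose together. The RefSeq window on GRCh38.p14, plus strand, is chr15:44536897-44537196, and capitals mark the 223 bases between the starts of EIF3J-DT and EIF3J, which lie 224 bases apart.
EIF3J: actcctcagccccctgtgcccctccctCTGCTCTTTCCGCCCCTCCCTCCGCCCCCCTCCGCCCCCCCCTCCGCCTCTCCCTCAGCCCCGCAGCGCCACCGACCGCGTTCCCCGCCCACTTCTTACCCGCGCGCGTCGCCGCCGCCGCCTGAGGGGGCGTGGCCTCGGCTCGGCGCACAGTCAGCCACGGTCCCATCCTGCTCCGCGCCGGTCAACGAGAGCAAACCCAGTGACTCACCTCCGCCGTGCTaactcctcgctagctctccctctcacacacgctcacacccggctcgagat
EIF2AK3 has a divergent noncoding neighbour as well, EIF2AK3-DT, whose start lies 365 bases from its own. EIF2AK3-DT had 2.54, 2.73 and 2.78 CPM in siRCC2 cells, against 1.24, 1.46 and 1.24 CPM in siCtrl cells (1.03 ± 0.18, edgeR adjusted p = 0.00393). There the noncoding gene passed the test and the kinase gene did not. EIF1B-AS1, whose start lies 9 bases from that of EIF1B, averaged 1.18 ± 0.337 CPM in siRCC2 cells and 1.28 ± 0.382 CPM in siCtrl cells and did not pass. EIF1AX-AS1 had 0 reads in all libraries.

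The other 9 eIF3 subunits ranged from -0.26 (EIF3D, which can itself bind certain caps) to 0.25 (EIF3H) in log2 fold change, and none passed the test. EIF3D and EIF3K did not overlap between groups. Without siRCC2 replicate 1, EIF3D, EIF3H and EIF3K passed (adjusted p = 0.0254, 0.0231 and 0.0211), as did EIF1 (adjusted p = 0.0437) and EIF6 (adjusted p = 0.00977).

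**Figure D3:**
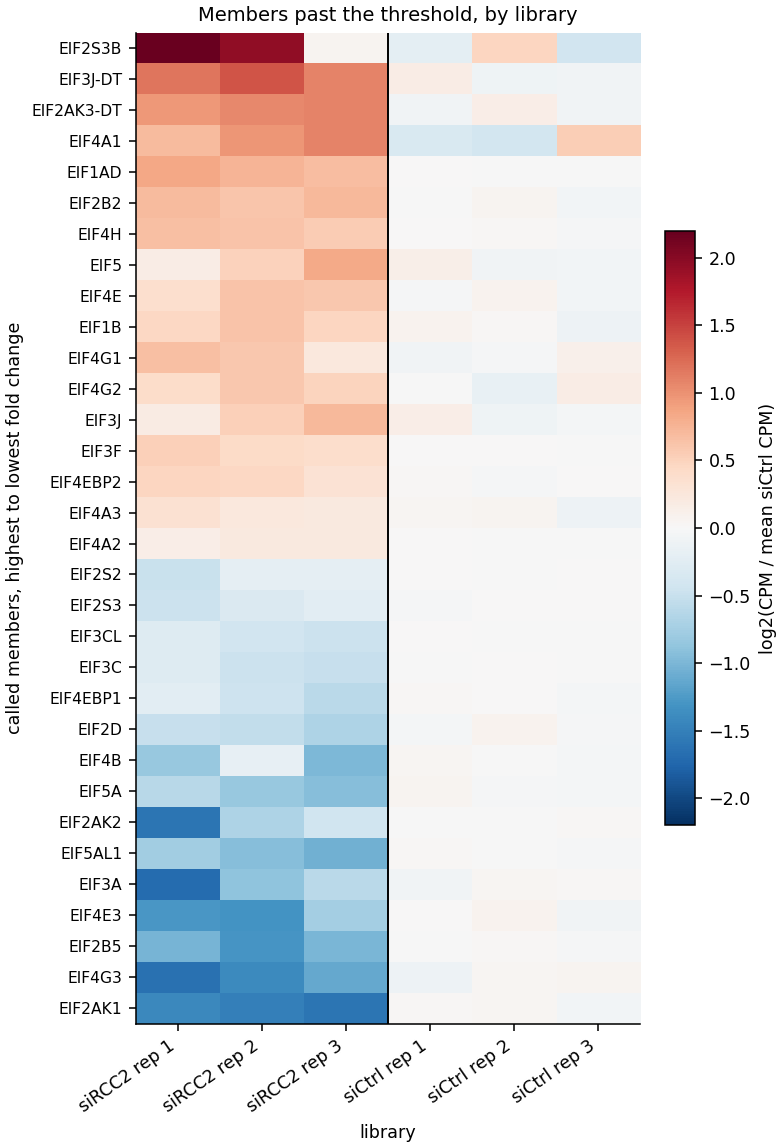
Heat map of log2(CPM over the mean siCtrl CPM) for the 32 called members (rows, highest to lowest fold change) in the 3 siRCC2 libraries and the 3 siCtrl libraries (columns); red is above and blue below the siCtrl mean. EIF3A and EIF2AK2 are lowest in siRCC2 replicate 1, EIF2S3B is high in siRCC2 replicates 1 and 2 and not in replicate 3, and EIF4A1 varies among siCtrl libraries.

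In the cap-binding group, 7 of 11 tested genes rose, 3 fell and EIF4E2 alone did not pass, a called share of 90.9% against 41.8% of all tested genes and 47.9% of those of at least 10 CPM. The rises include EIF4A1, whose call did not hold when rows of shared sequence were summed (adjusted p = 0.486). EIF4E, the cap-binding protein, had 19.8, 23.8 and 23.1 CPM in siRCC2 cells, against 15.2, 16.2 and 14.7 CPM in siCtrl cells. It rose in all siRCC2 libraries (0.53 ± 0.11, edgeR adjusted p = 0.00821). EIF4E3, a paralog with a weaker grip on the cap, had 7.50, 7.32 and 10.9 CPM in siRCC2 cells, against 18.2, 19.1 and 17.1 CPM in siCtrl cells. It fell 2.12-fold (-1.08 ± 0.17, edgeR adjusted p = 0.00265). EIF4E2, which represses translation at the cap, had a log2 fold change of 0.23 ± 0.16 and overlapping groups, and EIF4E1B, an oocyte paralog, had 1 read in siRCC2 replicate 1 and 0 in the other libraries.

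The scaffolds changed in opposite directions. EIF4G1, the main scaffold, had 1072, 1016 and 795 CPM in siRCC2 cells, against 636, 661 and 726 CPM in siCtrl cells (0.51 ± 0.12, edgeR adjusted p = 0.0125). The call was lost without siRCC2 replicate 2 (adjusted p = 0.0617) or siCtrl replicate 1 (adjusted p = 0.0524). EIF4G2 (DAP5), which lacks the eIF4E-binding region, had 628, 715 and 661 CPM in siRCC2 cells, against 467, 420.5 and 528 CPM in siCtrl cells. Its groups did not overlap (0.50 ± 0.10, edgeR adjusted p = 0.00596). EIF4G3, the paralog of EIF4G1 that also binds eIF4E, had 25.6, 30.1 and 36.8 CPM in siRCC2 cells, against 73.6, 82.5 and 83.5 CPM in siCtrl cells. It was 2.59-fold lower (-1.37 ± 0.14, edgeR adjusted p = 0.000421). Per kilobase, EIF4G3 made up 2.12%, 2.62% and 4.02% of the summed level of EIF4G1 and EIF4G3 in siRCC2 cells, against 9.48%, 10.2% and 9.43% in siCtrl cells.

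The 4E-binding proteins also changed in opposite directions. EIF4EBP1 had 164, 141 and 128 CPM in siRCC2 cells, against 197, 194 and 189 CPM in siCtrl cells. It fell (-0.42 ± 0.10, edgeR adjusted p = 0.0116), a call lost without siRCC2 replicate 2 (adjusted p = 0.0819). EIF4EBP2 had 235, 231 and 211 CPM in siRCC2 cells, against 171, 167 and 169 CPM in siCtrl cells. It rose in all siRCC2 libraries (0.42 ± 0.07, edgeR adjusted p = 0.00258). Per kilobase, the ratio of EIF4EBP1 to EIF4EBP2 was 4.97, 4.36 and 4.33 in siRCC2 cells, against 8.21, 8.30 and 7.94 in siCtrl cells. That level rests on median transcript lengths of 1020 bases for EIF4EBP1 and 7257 bases for EIF4EBP2. The ratio of EIF4E to their sum was 0.0922, 0.126 and 0.134 in siRCC2 cells, against 0.0627, 0.0682 and 0.0634 in siCtrl cells. EIF4EBP3 had 1, 1 and 5 reads in siRCC2 cells and 6, 6 and 7 reads in siCtrl cells and was too low to test. EIF4ENIF1, which carries eIF4E into the nucleus, had non-overlapping groups but did not pass (0.33 ± 0.12, edgeR adjusted p = 0.0689).

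**Figure D4:**
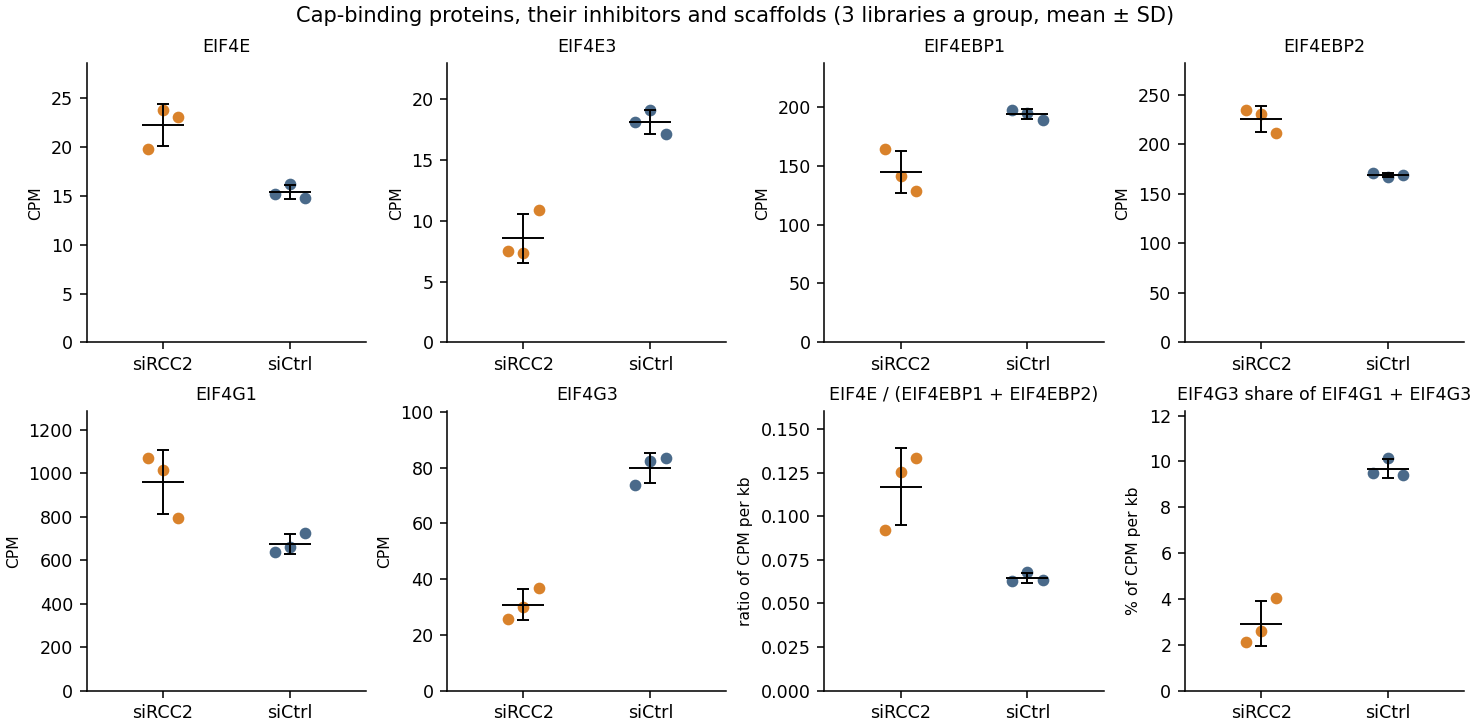
CPM of EIF4E, EIF4E3, EIF4EBP1, EIF4EBP2, EIF4G1 and EIF4G3, and a ratio and a share computed per kilobase, in each siRCC2 library (orange, left) and siCtrl library (blue, right), with mean and SD (n = 3 each). EIF4E, EIF4EBP2 and EIF4G1 are higher in siRCC2 cells, EIF4E3, EIF4EBP1 and EIF4G3 are lower, and neither the ratio nor the share overlaps between groups.

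EIF4A1, the main helicase of the complex, shares more of its sequence with other transcripts than any other called member. Its row had 157, 189.7 and 208 CPM in siRCC2 cells, against 77.3, 73.5 and 141 CPM in siCtrl cells (0.93 ± 0.26, edgeR adjusted p = 0.0249). All of its 50-base stretches occur in other transcripts, above all in SENP3-EIF4A1, a read-through transcript from the neighbouring gene. SENP3-EIF4A1 had 3857, 1871 and 1386 reads in siRCC2 cells, against 5198, 5197 and 2161 reads in siCtrl cells. The libraries with few read-through reads were those with many EIF4A1 reads within each group. Summed with the read-through, AC016876.3 and 2 pseudogenes, the level was 506, 404 and 385 CPM in siRCC2 cells and 417, 431 and 342 CPM in siCtrl cells. These groups overlapped, and the sum did not pass (0.12 ± 0.13, edgeR adjusted p = 0.486). The call on the row alone was also lost without siRCC2 replicate 2 or 3 (adjusted p = 0.0586 and 0.0613) and without siCtrl replicate 1 or 2 (adjusted p = 0.0836 and 0.0766).

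**Figure D5:**
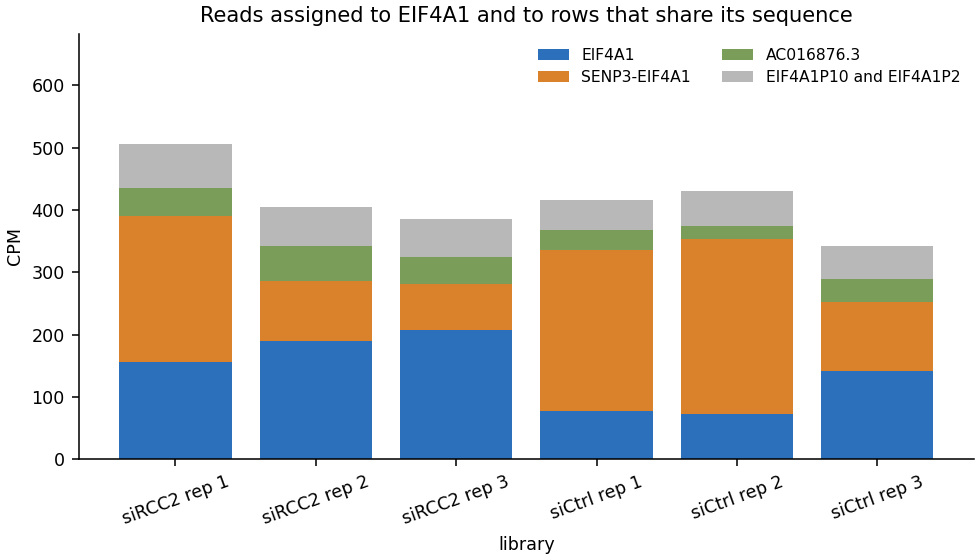
Stacked bars of the CPM assigned to EIF4A1 and to rows that share its sequence, in each siRCC2 library and each siCtrl library. EIF4A1 (blue, bottom) is taller in siRCC2 libraries, while the whole bars run from 385 to 506 CPM in siRCC2 libraries and from 342 to 431 CPM in siCtrl libraries and overlap.

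EIF4A2, its paralog, had 218, 228 and 226 CPM in siRCC2 cells, against 197, 194 and 196 CPM in siCtrl cells. This was the smallest rise called (0.19 ± 0.06, edgeR adjusted p = 0.0299). It was lost under 9 alternatives, among them DESeq2 (adjusted p = 0.0517), siRCC2 without replicate 2 (adjusted p = 0.129) and siCtrl without replicate 1, 2 or 3 (adjusted p = 0.0923, 0.104 and 0.0992). EIF4A3, the helicase of the exon junction complex, had 198, 184 and 182 CPM in siRCC2 cells, against 163, 163 and 146 CPM in siCtrl cells (0.26 ± 0.07, edgeR adjusted p = 0.0278). It too was lost without siRCC2 replicate 2 (adjusted p = 0.0877) and without siCtrl replicate 1, 2 or 3 (adjusted p = 0.0623, 0.0596 and 0.103), with upper-quartile scaling (adjusted p = 0.0514) and when all genes with a read were kept (adjusted p = 0.0729).

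The helicase cofactors went in opposite directions. EIF4H had 658, 638 and 612 CPM in siRCC2 cells, against 415, 421 and 405 CPM in siCtrl cells, and rose with little spread (0.62 ± 0.06, edgeR adjusted p = 0.000304). EIF4B had 274, 428 and 245 CPM in siRCC2 cells, against 503, 484 and 470.2 CPM in siCtrl cells. It fell, with siRCC2 replicate 2 nearest to the siCtrl level (-0.62 ± 0.20, edgeR adjusted p = 0.0393). That call was lost without siRCC2 replicate 1 or 3 (adjusted p = 0.0861 and 0.0813) and without siCtrl replicate 1, 2 or 3 (adjusted p = 0.102, 0.0916 and 0.0837). Summed with 3 pseudogenes that share its sequence, EIF4B was lower by -0.50 ± 0.14 on the log2 scale (edgeR adjusted p = 0.0261).

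Promoters were searched because EIF4E, EIF4G1, EIF4H and other members rose together. RefSeq windows of 250 bases before to 50 after the start, on GRCh38.p14, matched 51 of the 60 members. The E-box CACGTG, a palindrome that MYC and related factors are known to bind, was searched on both strands. It was in the windows of 13 members (25.5%), against 8.77% of all genes with a window. That background includes genes not tested, and the shares among tested genes, given next, are higher. The 13 count EIF1B and EIF1B-AS1 separately, although their starts lie 9 bases apart, and include EIF4EBP3, which was too low to test. Of the 17 members that rose the E-box was in 6 (EIF1B, EIF3F, EIF4E, EIF4G1, EIF4A3 and EIF4H), against 14.1% of all tested genes that rose. Of the 10 members that fell and had a window it was in 2 (EIF2AK2 and EIF4B), against 11.5% of all that fell, and of 21 not called it was in 4, against 12.2%. The windows of EIF4E (chr4:98929084-98929383, minus strand) and EIF4H (chr7:74174106-74174405, plus strand) are shown as the cap-binding protein and the rise with the smallest p. Capitals mark CACGTG, which EIF4E holds at 2 places and EIF4H at 1.
EIF4E: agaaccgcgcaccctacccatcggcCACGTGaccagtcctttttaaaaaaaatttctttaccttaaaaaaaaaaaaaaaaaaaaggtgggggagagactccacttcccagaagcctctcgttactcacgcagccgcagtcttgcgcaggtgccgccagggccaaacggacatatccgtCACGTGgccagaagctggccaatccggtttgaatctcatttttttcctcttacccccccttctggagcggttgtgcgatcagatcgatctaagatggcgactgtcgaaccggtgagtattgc
EIF4H: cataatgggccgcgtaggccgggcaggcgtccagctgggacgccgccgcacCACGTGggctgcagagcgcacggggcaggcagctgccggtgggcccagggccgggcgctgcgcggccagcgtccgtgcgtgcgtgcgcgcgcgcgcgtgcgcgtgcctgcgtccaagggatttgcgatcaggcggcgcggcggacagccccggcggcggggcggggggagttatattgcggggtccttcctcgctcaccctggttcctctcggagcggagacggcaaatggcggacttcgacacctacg
MYC itself had 8.04, 3.04 and 67.5 CPM in siRCC2 cells, against 3.03, 3.34 and 3.71 CPM in siCtrl cells. Only siRCC2 replicate 3 was far above the rest, and MYC, looked at after the motif counts were seen, did not pass the test (edgeR adjusted p = 0.0608). The ATF4-type element TGATGNAAN was in the window of 1 member, EIF4E3, against 4.45% of all genes, and the CRE TGACGTCA in none of the 51, against 2.25%. Overlap of these motifs with others was not counted.

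In the start codon group, EIF1B and EIF1AD rose and EIF1, EIF1AX and EIF1AY did not pass. A call in 2 of 5 genes is a smaller share than the 41.8% of all tested genes and the 47.9% of those of at least 10 CPM. EIF1AD, a nuclear protein with an eIF1A-like domain, had 51.3, 47.6 and 45.6 CPM in siRCC2 cells, against 28.8, 28.4 and 28.2 CPM in siCtrl cells. Its rise far exceeded the spread (0.76 ± 0.08, edgeR adjusted p = 0.000591). EIF1B, a paralog of the start codon factor EIF1, had 26.6, 30.1 and 27.1 CPM in siRCC2 cells, against 20.6, 19.8 and 18.0 CPM in siCtrl cells (0.52 ± 0.10, edgeR adjusted p = 0.00659). EIF1, the far more abundant paralog, averaged 239.9 ± 31.2 CPM in siRCC2 cells and 268 ± 7.51 CPM in siCtrl cells.

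After the start codon is found, EIF5 stimulates GTP hydrolysis by eIF2 and EIF5B joins the large subunit. EIF5 had 141, 179.5 and 225 CPM in siRCC2 cells, against 137, 119 and 121 CPM in siCtrl cells. The groups nearly touched at siRCC2 replicate 1 (0.53 ± 0.16, edgeR adjusted p = 0.0353). Its call was lost without siRCC2 replicate 2 or 3 (adjusted p = 0.0613 and 0.0607) and without siCtrl replicate 1, 2 or 3 (adjusted p = 0.0603, 0.108 and 0.105), and with library totals alone (adjusted p = 0.0717). EIF5B had 13.4, 34.0 and 54.3 CPM in siRCC2 cells, against 30.3, 32.6 and 37.9 CPM in siCtrl cells. Its siRCC2 libraries lay below, within and above the siCtrl range, and its log2 fold change was 0.01 ± 0.43. EIF6, which keeps the large subunit free, averaged 396 ± 49.6 CPM in siRCC2 cells and 460.3 ± 23.6 CPM in siCtrl cells and did not pass.

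EIF5A, the hypusine-bearing factor that helps ribosomes through difficult peptide bonds, fell. It had 243, 209.8 and 193 CPM in siRCC2 cells, against 388, 367 and 362 CPM in siCtrl cells (-0.79 ± 0.09, edgeR adjusted p = 0.000761). EIF5AL1, its copy on chromosome 10, had 51.3, 45.3 and 41.8 CPM in siRCC2 cells, against 89.0, 86.8 and 85.4 CPM in siCtrl cells (-0.92 ± 0.09, edgeR adjusted p = 0.000415). EIF5A shares 30.1% of its 50-base stretches with EIF5AL1, so the split is uncertain. Both rows and the pseudogene EIF5AP4 summed fell as well (-0.82 ± 0.09, edgeR adjusted p = 0.000682). EIF5A2, a paralog known from amplified tumour regions, had 3.87, 5.41 and 6.82 CPM in siRCC2 cells and 4.86, 3.77 and 4.22 CPM in siCtrl cells and did not pass.

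Across 12743 tested genes with a GENCODE 29 3′ UTR of at least 100 bases, CTGGAA was the 6-base word with the lowest median fold change relative to genes without it, of 4096 words. The median log2 fold change was -0.13 in the 6059 genes with CTGGAA and 0.05 in the others. It occurred in 57.5% of all genes that fell, 38.0% of those that rose and 47.0% of those not called. CTGGAA was picked by fold change over these same genes, members included. Its excess among falls follows from that choice and is no separate evidence. Among members CTGGAA occurred in 9 of the 15 that fell (60.0%), 5 of the 15 that rose and had such a 3′ UTR (33.3%) and 7 of the 22 not called (31.8%). The 9 include EIF5A and its copy EIF5AL1, which hold the same site. For CTGGAA the shares of members were near those of all genes for falls and rises. The overlapping word TCTGGA ranked next; it occurred in 6 of the 15 members that fell and 6 of the 15 that rose, against 55.1% and 35.4% of all genes that fell and rose. Longer 3′ UTRs hold any given word more often, and neither length nor the siRNA's own sequence, which is not given, was tested. A selection of sites, from 4 of the 9 members that fell and hold the word, is shown on the strand of the gene, with CTGGAA in capitals (GRCh38, GENCODE 29). They lie at chr7:6024632-6024651 and chr7:6022982-6023001 (EIF2AK1, minus), chr3:184145063-184145082 and chr3:184145143-184145162 (EIF2B5, plus), chr10:119035823-119035842 and chr10:119033731-119033750 (EIF3A, minus) and chr17:7312131-7312150 (EIF5A, plus).
EIF2AK1, site 1: tagttaaCTGGAAtgtaaat
EIF2AK1, site 2: ctgagggCTGGAAacccagg
EIF2B5, site 1: gcagaggCTGGAActacagt
EIF2B5, site 2: agtggggCTGGAAcaaagct
EIF3A, site 1: ccattttCTGGAAtttaagg
EIF3A, site 2: tctttgtCTGGAAgcatata
EIF5A: attcaatCTGGAAtcagaaa
EIF4G3, which fell 2.59-fold, had no CTGGAA in the one 3′ UTR that was searched, and EIF4E, EIF4EBP2 and EIF3F, which rose, each had 3.

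Of the list on mTORC1 and MNK control of eIF4E, with 21 tested genes, 6 rose, 7 fell and 8 did not pass. The called share was 61.9%, against 41.8% of all genes and 47.9% of those of at least 10 CPM. The list's median log2 fold change was -0.06. DDIT4, an inhibitor of mTORC1, had the largest fall (-2.18 ± 0.08, edgeR adjusted p = 2.00e-05). LARP1, which binds messages with a 5′ terminal oligopyrimidine tract, averaged 222 ± 6.22 CPM in siRCC2 cells and 422 ± 18.1 CPM in siCtrl cells (-0.93 ± 0.06, edgeR adjusted p = 9.12e-05). PDCD4, an inhibitor of eIF4A, averaged 14.7 ± 1.94 CPM in siRCC2 cells and 36.5 ± 6.40 CPM in siCtrl cells (-1.31 ± 0.16, edgeR adjusted p = 0.000924). AKT1S1 (PRAS40), a subunit that restrains mTORC1, rose to 108 ± 6.59 CPM in siRCC2 cells, against 73.5 ± 4.38 CPM in siCtrl cells (0.56 ± 0.08, edgeR adjusted p = 0.0018). Inhibitors of this pathway thus moved both ways.

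Of 20 tested poly(A) and cap partners of initiation, 3 rose, 3 fell and 14 did not pass. The called share was 30.0%, against 41.8% of all genes and 47.9% of those of at least 10 CPM. CYFIP2 averaged 2.23 ± 0.486 CPM in siRCC2 cells and 26.6 ± 2.17 CPM in siCtrl cells (-3.57 ± 0.18, edgeR adjusted p = 3.78e-05). CYFIP1, on the same list, did not pass (0.16 ± 0.07, edgeR adjusted p = 0.112) and was named after its value was seen. GIGYF1, which works with EIF4E2 in repression, averaged 184 ± 9.01 CPM in siRCC2 cells and 116 ± 2.77 CPM in siCtrl cells (0.67 ± 0.07, edgeR adjusted p = 0.000393). NCBP2, the small subunit of the nuclear cap-binding complex, was lower (-0.44 ± 0.07, edgeR adjusted p = 0.00314), and CTIF, its partner in cap-dependent initiation, was higher (0.40 ± 0.09, edgeR adjusted p = 0.0136).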

How the data were processed

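RNA-seq of DU145 cells gave 6 libraries, 3 siRCC2 and 3 siCtrl, grouped by their titles. The authors deposited whole-number counts for 50868 genes per library. Bowtie2, RSEM, DESeq2 and GRCh38 are named, without versions or settings, in the submitters' processing notes. RSEM shares reads among like sequences, and its estimates may have been rounded. Whether strand was kept is not given in the sources used here.

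Differential expression was computed from the counts with edgeR 4.0.16 in R 4.3.3 (filterByExpr, TMM, quasi-likelihood F-test, Benjamini-Hochberg adjustment over all 16536 tested genes, threshold 0.05), a fit checked on simulated counts. Standard errors equal the size of the log2 fold change over √F. CPM are TMM-scaled, with SD over 3 libraries. Before TMM scaling, 1 CPM corresponds to between 17.4 and 19.9 reads in a library, which makes values near 1 CPM imprecise. Levels per kilobase use the median length of coding transcripts. Shared 50-base stretches, overlaps and 3′ UTRs came from GENCODE 29, which holds 50111 of the gene identifiers. Libraries of a group differed by more than sampling noise and were counted singly.

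Values per library are given for called members without overlap and a mean of at least 1 CPM, and for the kinases, eIF2, eIF2B, eIF4F and the 4E-binding proteins; of each related list up to 4 genes with the smallest p are named. Members and lists were chosen with earlier results of these data known. Alternatives were other scalings, filters and thresholds, DESeq2 1.42.0, limma 3.58.1 (voom), a replicate block, leaving out each library and, added after the data were seen, summing rows that share at least 10% of their stretches.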

Additional observations from a re-analysis of the deposited data

How the results depend on the processing

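Of the 32 called members, 18 kept their call and direction under every alternative run for them at the 0.05 threshold (EIF5AL1 had no value of its own when shared rows were summed), among them EIF2AK1, EIF2B5, EIF2B2, EIF4G3, EIF4E, EIF4E3, EIF4H and EIF5A. The other 14 lost the call under at least 1, mostly when a library was left out, which leaves fewer samples. Leaving out each library gave 10 to 18 members higher and 10 to 18 lower, against 17 and 15. Over all genes it gave 2520 to 3666 higher and 2511 to 3899 lower, against 3423 and 3488. At 0.01, 10 members were higher and 9 lower, with 2069 and 2048 of all genes, against 3423 and 3488. The replicate numbers did not pair the libraries (same-number correlations 0.06, -0.04 and 0.10); with the replicate block 14 members were higher and 14 lower, and 3075 and 3220 of all genes. EIF2S2, EIF3J, EIF4A2 and EIF5 were not called with the block (adjusted p = 0.053, 0.0632, 0.0666 and 0.0663). No scaling moved the median of all genes by over 0.07. Some members that were not called changed sign, and the cause was not tested. EIF5B, at 0.01, was -0.015 with the upper quartile, -0.043 with total counts, -0.017 with all genes of at least 1 read, -0.17 with limma-voom, -0.17 with the replicate block, and from -0.50 to 0.38 when a library was left out. Leaving out a library gave from -0.33 to 0.067 for EIF1B-AS1, from -0.24 to 0.11 for EIF2A, from -0.012 to 0.14 for EIF3B and from -0.16 to 0.099 for EIF3G.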

Other observations

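Beyond initiation, the list on elongation, termination and hypusination had 15 tested genes, of which 5 rose, 4 fell and 6 did not pass. The called share was 60.0%, against 41.8% of all genes and 47.9% of those of at least 10 CPM. The list's median log2 fold change was 0.20, against -0.02 over all genes. EEFSEC, the elongation factor for selenocysteine, averaged 10.1 ± 1.39 CPM in siRCC2 cells and 22.2 ± 1.77 CPM in siCtrl cells (-1.13 ± 0.14, edgeR adjusted p = 0.000847). DHPS, the enzyme of the first step of hypusine formation on eIF5A, had 19.7, 30.8 and 19.5 CPM in siRCC2 cells, against 43.9, 48.4 and 44.2 CPM in siCtrl cells. It fell together with EIF5A (-0.96 ± 0.19, edgeR adjusted p = 0.00607). DOHH, the enzyme of the next step, averaged 34.8 ± 8.07 CPM in siRCC2 cells and 30.2 ± 6.39 CPM in siCtrl cells and did not pass. EEF2KMT, a methyltransferase of elongation factor eEF2, was higher (0.54 ± 0.11, edgeR adjusted p = 0.00638). ETF1, the release factor that reads stop codons, was also higher (0.41 ± 0.08, edgeR adjusted p = 0.00676). DOHH was named after its value was seen.

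Over all genes, pairs of siRCC2 libraries differed more than pairs of siCtrl libraries (chi-square over degrees of freedom at least 14.2, against at most 10.7), and the initiation factors were not tested apart from that. The highest library exceeded the lowest at least 1.5-fold in 8 of 57 tested members among siRCC2 libraries and in 4 among siCtrl libraries. The share of all tested genes beyond that ratio was not counted, so these counts are not a result about the members. The largest such ratios in siRCC2 cells were 4.32 for EIF2S3B and 4.05 for EIF5B, against 1.88 and 1.25 in siCtrl cells.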
